A study of Homo sapiens with 2 samples.

Results

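A set of 10 genes of glutathione metabolism and of the defence against ferroptosis was examined in NK92 cells, an established human natural killer (NK) cell line, with and without PPMX-T003, an antibody that blocks transferrin receptor 1 (TfR1). The genes were chosen by name for their roles and are GCLC, GCLM, GSS, GSR, TXNRD1, GPX4, AIFM2, NFE2L2, KEAP1 and ACSL4, 10 of the 46427 genes listed in the deposited table. All 10 passed the minimum of 20 counts summed over the libraries, which 13665 genes passed in all. Both libraries came from cells grown with 2% human serum, which had 18 h in culture before the exposure began. The cells were then split evenly into separate dishes of fresh medium. Exposure lasted 6 h at a PPMX-T003 concentration of 10 µg/mL, and the unexposed dish stayed in culture over the same 6 h without the antibody. Poly(A) RNA was sequenced from 1 library per condition, so the differences given here have no replicate check, and 1 dish of a single line stands for each condition. The deposited columns carry the names 0 h and 6 h, and the column named 0 h was taken as the unexposed dish; if the harvest times differed, time and exposure cannot be told apart. The study compared these libraries to obtain the expression changes that go with TfR1 blockade. In all, 46766416 counts were read in the unexposed and 43178462 in the exposed library.

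Glutathione is a small thiol peptide made from glutamate, cysteine and glycine, and it supplies the electrons with which GPX4 reduces peroxides of membrane lipids. Ferroptosis is a form of cell death driven by iron-dependent peroxidation of those lipids, and cells hold it back through glutathione, through selenium-containing enzymes and through radical-trapping quinones. Because TfR1 brings in iron, the enzymes that contain lipid peroxidation are of interest in cells in which it is blocked.

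The NK cell identity was checked against its markers. All 10 NK cell markers had counts in both libraries, with a summed level of 4319 CPM (counts scaled to the size of the library) in the unexposed and 4808 CPM in the exposed library. The most abundant by deposited TPM, a level per transcript length, was NKG7, with 3215 and 3445. Of the 6 T cell markers, CD3D, CD8A and CD8B were listed at 0 in both libraries, and the list summed to 110 and 125 CPM, mostly from TRBC1 with 3664 and 4100 counts. The 3 B cell markers summed to 0.299 and 0.278 CPM, with MS4A1 at 0. The 4 monocyte markers summed to 101 and 103 CPM, nearly all from S100A9, while CD14 had 0 and 7 counts. The 3 red cell and 3 liver cell markers were at 0. ESD and PRDX2, which most cells express, were also listed at 0 in both libraries, so a listed 0 alone does not show that a transcript was absent. The higher sum of the NK cell markers in the exposed library stands beside all results below, and its part in them was not tested. In RNA from a whole dish, more cells with a transcript and more of it per cell cannot be told apart.

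Upstream sequences of the genes were searched for the core letters of the antioxidant response element, the sequence that NFE2L2 binds together with small MAF proteins, because several of these genes are known NFE2L2 targets. Promoters from RefSeq (GRCh38.p14) were matched for 8 of the 10 genes, with 13 promoters in all. GSS and GSR had no entry. For 8 of the 13 promoters the part after the start matched the beginning of a transcript of the gene in GENCODE 29. The motif TGACNNNGC was looked for on both strands in the 250 bases before each start, and 10.9% of all 35116 promoters (3830) held it. Of the 13 promoters, 5 did, and they belong to 4 genes: GCLM, TXNRD1, AIFM2 and KEAP1. A gene with several promoters has more chances of a match. Each window is given 5′ to 3′ on the strand of its gene, with the motif or its reverse complement in capitals. The GCLM window lies at chr1:93909446-93909474 on the minus strand and the AIFM2 window at chr10:70132829-70132857 on the minus strand. The TXNRD1 windows lie at chr12:104215670-104215698, upstream of the annotated gene, and chr12:104286920-104286948, before a later start, both on the plus strand. The KEAP1 windows overlap each other, at chr19:10502807-10502835 and chr19:10502784-10502812 on the minus strand. All of these except the first TXNRD1 window overlap an untranslated region of another annotated transcript of the same gene in GENCODE 29.
GCLM: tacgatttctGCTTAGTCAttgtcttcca
TXNRD1 upstream start: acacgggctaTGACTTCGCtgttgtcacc
TXNRD1 later start: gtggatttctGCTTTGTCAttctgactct
AIFM2: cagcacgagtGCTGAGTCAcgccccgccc
KEAP1 farther from the start: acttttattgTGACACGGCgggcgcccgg
KEAP1 nearer to the start: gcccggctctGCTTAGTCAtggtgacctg
A match is a description of the letters and not a binding site. For GCLC, GPX4, NFE2L2 and ACSL4 these letters were not in the windows searched.

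Differences between the libraries were small for all 10 genes. None of the 10 was at least 2-fold higher or lower in the exposed library, against 1.27% of all genes tested that were at least 2-fold higher and 1.38% that were at least 2-fold lower. Each log2 fold change has a counting interval, made from the 95% Clopper-Pearson bounds of the share of a gene's reads that fell in the exposed library; it covers counting error only, and it compares libraries and not conditions. It lay above 0 for 2 of the 10 genes, GPX4 and KEAP1, against 21.8% of all genes tested, and below 0 for 3, GCLC, TXNRD1 and ACSL4, against 23.9%. It held 0 for the other 5. Intervals narrow with depth, and all 10 genes had at least 3000 counts summed; among the 5830 genes with that many, a background chosen after seeing the data, 30% lay above 0 and 36.2% below. With so few genes these shares do not set the 10 apart from the background. Upper-quartile scaling, which shifts every gene alike, gave 3 above and 2 below, as GSR came to lie above 0 and GCLC came to hold 0. The shares of all genes tested moved the same way, to 23.9% above and 21.9% below. The median log2 fold change of the 10 genes was 0.0048, beside -0.0020 for all genes tested, and it was -0.0050 with median-of-ratios scaling. Together the 10 genes took 54083 counts (0.116% of the library) without and 49647 (0.115%) with PPMX-T003.

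Glutathione synthesis starts with glutamate-cysteine ligase, whose catalytic subunit is GCLC (NCBI Gene ID 2729, chr6:53497341-53545101, GRCh38). GCLC had 3401 counts (72.7 CPM) in the unexposed and 2968 counts (68.8 CPM) in the exposed library. This gives a log2 fold change of -0.079 (interval -0.15 to -0.0078). GCLC was lower in the exposed library, with an interval that ends just below 0. With upper-quartile scaling the value was -0.067 and the interval reached above 0. With length and GC content removed it was -0.0039, and the interval held 0. The deposited TPM gave a larger difference, -0.17. GENCODE 29 places AL033397.1 over its exons on the same strand and AL033397.2 on the opposite strand, and the count of GCLC is uncertain where reads of shared exons were divided by an estimate.

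GCLM (ID 2730, chr1:93885199-93909430) encodes the modifier subunit, which makes the ligase more efficient and less easily inhibited by glutathione. It had 1784 counts (38.1 CPM) without and 1604 counts (37.2 CPM) with PPMX-T003, a log2 fold change of -0.036 (interval -0.13 to 0.062). The interval holds 0, so a difference was not detectable at this depth. The count ratio of catalytic to modifier subunit, GCLC to GCLM, does not depend on the scaling of the libraries and was chosen after the values were seen. It was 1.91 in the unexposed and 1.85 in the exposed library, a log2 change of -0.043 with an interval (-0.16 to 0.079) that holds 0; it was -0.095 with length and GC content removed.

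GSS (ID 2937, chr20:34928432-34956027), glutathione synthetase, adds glycine in the last step of synthesis. Its counts were 3977 (85.0 CPM) in the unexposed and 3726 (86.4 CPM) in the exposed library. The interval of its log2 fold change, 0.023 (-0.042 to 0.088), holds 0.

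Oxidised glutathione is returned to its reduced form by glutathione reductase, encoded by GSR (ID 2936). GSR was read at 10464 counts (224 CPM) without and 9858 counts (229 CPM) with PPMX-T003. Its log2 fold change of 0.031 had an interval (-0.0086 to 0.071) that holds 0 and moves above 0 with upper-quartile scaling. TXNRD1 (ID 7296, chr12:104215779-104350307) encodes the cytosolic thioredoxin reductase, a selenoprotein that keeps thioredoxin reduced in parallel to glutathione. It was the most deeply read of the 10 genes, with 12622 counts (270 CPM) in the unexposed and 10863 counts (252 CPM) in the exposed library. With a log2 fold change of -0.099 (interval -0.14 to -0.062), TXNRD1 was lower in the exposed library beyond counting error. By the deposited TPM the difference was -0.15. The count ratio GSR to TXNRD1, also chosen after the values were seen, was 0.829 in the unexposed and 0.907 in the exposed library. The change of this ratio, 0.13 on the log2 scale (interval 0.076 to 0.18), is free of the scaling, but the interval ignores that choice. It was 0.055 with length and GC content removed and 0.083 when the longest transcripts were used.

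GPX4 (ID 2879, chr19:1103994-1106779) encodes the selenoprotein that reduces lipid hydroperoxides in membranes and is the central brake on ferroptosis. It had 1665 counts (35.6 CPM) in the unexposed and 1714 counts (39.7 CPM) in the exposed library. The log2 fold change was 0.16 (interval 0.061 to 0.26), which is 11.6% more in the exposed library. GPX4 was higher beyond counting error with each of the 4 scalings, and it turned lower with 1 form of the fit on length and GC content given further on. GPX4 has no annotated exon shared with another gene in GENCODE 29.

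AIFM2 (ID 84883, chr10:70112271-70132825) encodes FSP1, an oxidoreductase that reduces coenzyme Q at the plasma membrane and restrains lipid peroxidation without glutathione. It had 1602 counts (34.2 CPM) without and 1463 counts (33.9 CPM) with PPMX-T003. Its log2 fold change of -0.014 had an interval from -0.12 to 0.089, and no difference was detectable. Its GENCODE 29 exons overlap those of MACROH2A2 on the opposite strand, a gene listed at 0 in both libraries.

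NFE2L2 (ID 4780, chr2:177230303-177264727) encodes NRF2, the transcription factor that drives many genes of glutathione synthesis and thioredoxin reduction. Its counts were 3683 (78.7 CPM) in the unexposed and 3462 (80.2 CPM) in the exposed library, a log2 fold change of 0.028 (interval -0.039 to 0.095). The transcript level of the factor itself thus had an interval that holds 0; NRF2 is regulated mainly through the stability of its protein, which was not measured here. Its exons overlap those of AC019080.1 on the same strand and those of AC079305.1 and AGPS on the opposite strand. AGPS had 12389 and 10249 counts. The libraries were prepared with a stranded kit, but whether the counting used the strand of the reads is not given in the sources used here.

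KEAP1 (ID 9817, chr19:10486125-10503356) encodes the adaptor that presents NRF2 for degradation until its cysteines are modified. KEAP1 had 7870 counts (168 CPM) in the unexposed and 8185 counts (190 CPM) in the exposed library. At 0.17 (interval 0.13 to 0.22), its log2 fold change was the highest of the 10 genes, which is 12.8% more in the exposed library. By the deposited TPM the KEAP1 difference was 0.11. Its interval overlapped that of GPX4, and with length and GC content removed GCLM was the highest, at 0.091, or 0.092 with the longest transcripts. The count ratio KEAP1 to NFE2L2, chosen after the values were seen, was 2.14 without and 2.36 with PPMX-T003. This is a log2 change of 0.15 (interval 0.065 to 0.23), so the transcript of the repressor was higher relative to that of its target. With length and GC content removed, the change of the ratio was -0.012, and 0.034 when the longest transcripts were used.

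ACSL4 (ID 2182, chrX:109641335-109733257) works in the other direction: it activates polyunsaturated fatty acids for membrane phospholipids, the substrates of lipid peroxidation, and its loss makes cells resistant to ferroptosis. It had 7015 counts (150 CPM) in the unexposed and 5804 counts (135 CPM) in the exposed library. The log2 fold change of -0.16 (interval -0.21 to -0.11) was the lowest of the 10, though with the fit on the longest transcripts AIFM2 was the lowest, at -0.062. ACSL4 was thus lower in the exposed library beyond counting error, while GPX4 was higher. The count ratio GPX4 to ACSL4, again chosen after the values were seen, was 0.237 without and 0.295 with PPMX-T003, a log2 change of 0.32 (interval 0.20 to 0.43). That of GPX4 to TXNRD1 was 0.132 and 0.158, a log2 change of 0.26 (interval 0.15 to 0.36). With length and GC content removed, these ratio changes were 0.13 and 0.076. Both turned slightly negative when the longest transcripts were used, to -0.025 and -0.0081. The intervals of ratios chosen after the values were seen, here and above, take no account of that choice. They add no support to the values of the single genes. ACSL4 shares exons on the same strand with KCNE5, which had 31 and 26 counts.

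**Figure D1:**
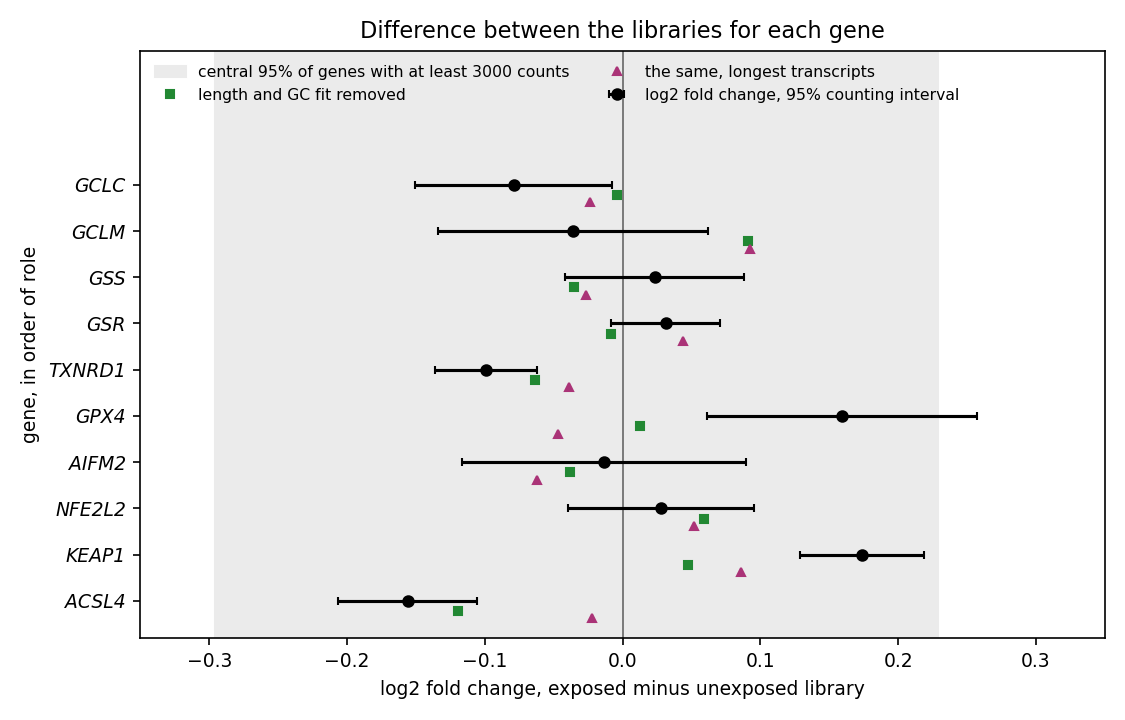
Log2 fold change (exposed minus unexposed library) of each gene in order of role, with its 95% counting interval as a bar. Squares and triangles give the value after removal of a fit on length and GC content, with medians over transcripts or with the longest transcript, and the grey band is the central 95% of genes with at least 3000 counts. All 10 points lie inside the band, and the intervals of GCLC, TXNRD1, GPX4, KEAP1 and ACSL4 do not reach 0.

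Against the spread of other genes, none of the 10 stood out. The log2 fold changes of the 5830 genes with at least 3000 counts had an SD of 0.14, and 95% of them fell between -0.30 and 0.23. All 10 genes lay within that range. KEAP1 and GPX4 were higher than 92.9% and 91.1% of these genes, and ACSL4 was higher than 15.6% of them. This spread joins the exposure with the handling of separate dishes and libraries, which cannot be told apart with 1 library per condition.

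The differences also followed base composition. Over all genes tested with a known GC content, grouped by GC content of their transcripts into 10 groups of about equal size, the median log2 fold change was -0.13 in the most GC-poor group (31.0% to 40.02%) and 0.12 in the most GC-rich (61.7% to 80.6%). GPX4 and KEAP1, the genes with intervals above 0, were the most GC-rich of the 10, with 62.9% and 61.8%. ACSL4, GCLC and TXNRD1, those with intervals below 0, had 42.0%, 44.3% and 46.8%. The 5 genes with intervals that held 0 were spread over this range and beyond it. GCLM had 40.1%, the lowest of the 10, and NFE2L2, with a positive log2 fold change, had 44.0%, while GSR, GSS and AIFM2 had 53.8%, 55.4% and 56.1%. To see how far each value depends on this, a robust regression on length and GC content over 9926 genes was removed from the log2 fold changes.

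With this fit removed, using medians over each gene's transcripts, KEAP1 went from 0.17 to 0.048 and GPX4 from 0.16 to 0.013. When the interval is moved by the same amount, that of KEAP1 still lay above 0 and that of GPX4 held 0. With the longest transcripts in place of medians, a setting chosen after seeing the data, KEAP1 was at 0.086 and GPX4 changed sign to -0.047. Among the genes that were lower, TXNRD1 went from -0.099 to -0.063 and, with the longest transcripts, to -0.039, with an interval below 0 both times. ACSL4, whose annotated transcripts range widely in length, was at -0.12 with the medians and at -0.022 with the longest transcript, where its interval held 0. Its median length was 719.5 bases and its longest 5333, beside 807.5 and 1002 for GPX4. In the unexposed library ACSL4 had more counts than GPX4 (7015 against 1665) but a lower TPM (69 against 100). The TPM thus rests on a longer length for ACSL4 than for GPX4, which the longest transcripts give and the medians do not. The GPX4 to ACSL4 ratio change of 0.13, made with the medians, has the same limit. GCLC was at -0.0039 and -0.024, and its interval held 0 both times. GCLM moved the other way, from -0.036 to 0.091 and 0.092, with intervals that still held 0. Of the remaining genes, NFE2L2 stood at 0.059 and 0.052, GSS at -0.035 and -0.027, GSR at -0.0082 and 0.044, and AIFM2 at -0.039 and -0.062. Of these, GSR alone had an interval off 0, above it with the longest transcripts. KEAP1 thus had an interval above 0, and TXNRD1 an interval below 0, under both forms, each with a smaller difference than before. With the medians the KEAP1 interval only just cleared 0, as did that of TXNRD1 with the longest transcripts. The moved intervals leave out the error of the fit itself.

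**Figure D2:**
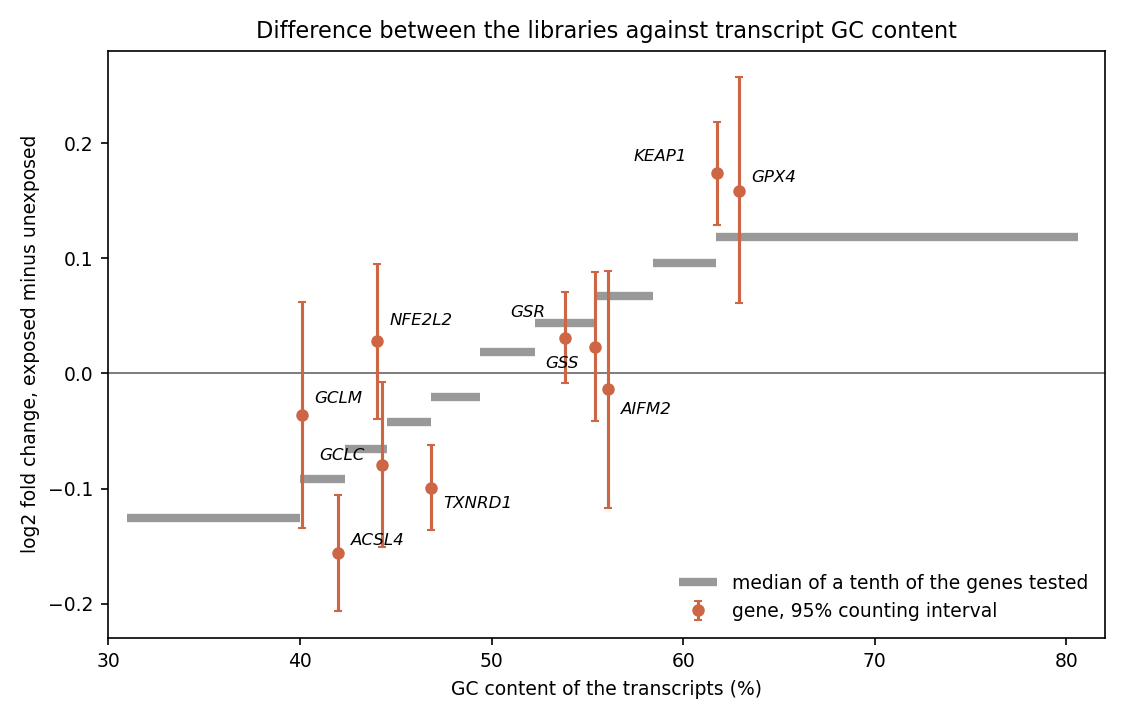
Log2 fold change (exposed minus unexposed library) of each of the 10 genes against the GC content of its transcripts in percent, with 95% counting intervals as bars. Grey bars give the median of each of 10 groups of the genes tested and span its GC content; they climb from -0.13 to 0.12. GPX4 and KEAP1, the most GC-rich of the 10 genes, carry the highest values, while the bar of GCLM, the most GC-poor, holds 0.

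Levels can be compared between genes by the deposited TPM, which is per transcript length and rounded to whole numbers. In the unexposed library TXNRD1 (166 TPM) and GSR (165 TPM) were highest, followed by KEAP1 at 148 TPM. The levels of TXNRD1 and GSR had overlapping counting intervals, so their order was not resolved. GPX4 and GSS both stood at 100 TPM. NFE2L2 at 71 TPM and ACSL4 at 69 TPM overlapped as well, and GCLC at 44 TPM, AIFM2 at 24 TPM and GCLM at 16 TPM closed the order without overlap. The catalytic subunit of the ligase was thus listed at a TPM 2.75 times that of the modifier subunit.

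In the exposed library the order at the top differed. This is the order of the deposited TPM, from which the fit on length and GC content was not removed. GSR (163 TPM) and KEAP1 (160 TPM) came first with overlapping intervals, and TXNRD1 followed at 149 TPM without overlap. GPX4 at 108 TPM lay above GSS at 98 TPM, and below them NFE2L2 (69 TPM), ACSL4 (60 TPM), GCLC (39 TPM), AIFM2 (23 TPM) and GCLM (15 TPM) kept their places. Among all genes tested, TXNRD1 had a higher TPM than 92.0% of genes in the unexposed and 91.0% in the exposed library, whereas GCLM was higher than 49.1% and 48.7%. KEAP1 was higher than 90.8% and 91.8%, and GPX4 than 86.1% and 87.4%. The recycling enzymes and KEAP1 were therefore among the more abundant transcripts in both libraries, and the modifier subunit lay near the middle.

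**Figure D3:**
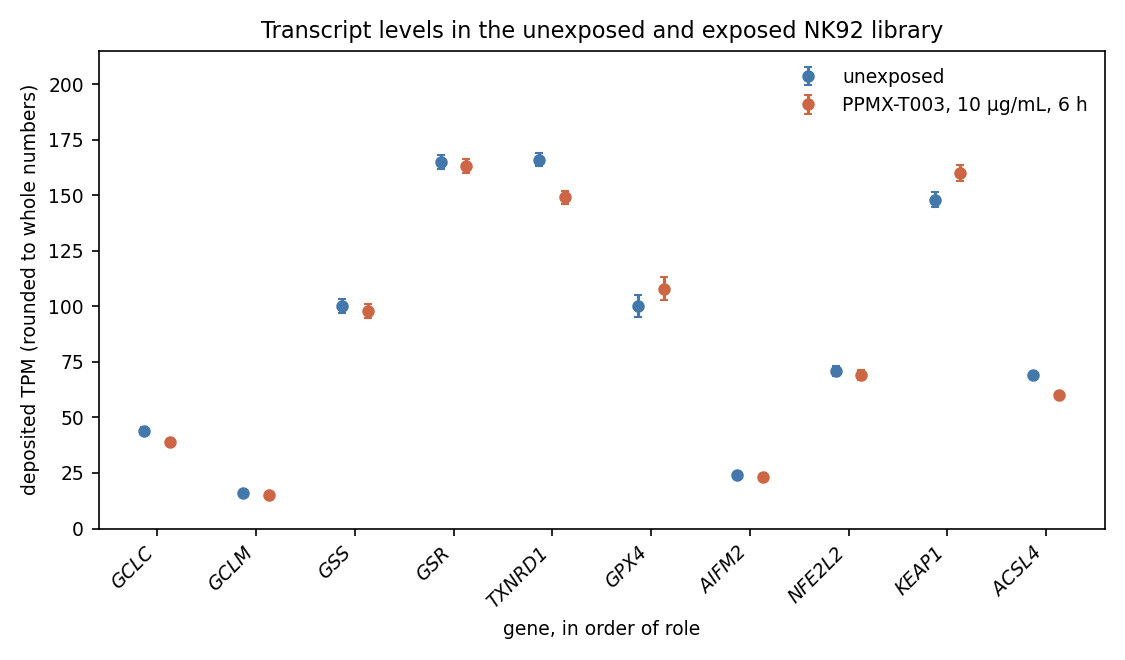
Deposited TPM of each gene in order of role in the unexposed (blue) and exposed (orange) library, with bars for the 95% Poisson interval of its counts. GSR, TXNRD1 and KEAP1 lie highest, between 148 and 166, and GCLM lowest, at 16 and 15; the bars cover counting error and not the rounding.

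The other genes of these pathways were described by 11 lists, and none of their genes with at least 20 counts was past 2-fold in either direction. The lists share genes, so their counts are not separate evidence: of the 160 genes tested in them, 13 are in more than 1 list, among them TXN, TKT and SLC7A11, which are also NRF2 targets, and SEPHS2, itself a selenoprotein. The counts above and below 0 in each list are read beside those of all genes tested, 21.8% and 23.9%. Among genes with at least 3000 counts the shares were higher, 30% and 36.2%, so a deeply read list has a higher background than all genes tested. The shares of all genes tested were 20.2% and 25.8% with median-of-ratios scaling and 11.6% and 14.5% with a wider interval. Over the 12092 genes with a known GC content they were 19.6% and 20.6% with the fit removed, and 19% and 19.2% with the longest transcripts. The largest difference among the genes named was that of SLC7A11, the cystine importer that feeds GCLC with cysteine. It had 1460 counts (31.2 CPM) without and 892 counts (20.7 CPM) with PPMX-T003, a log2 fold change of -0.59 (interval -0.72 to -0.47), and -0.38 with length and GC content removed. Its partner chain SLC3A2 was at 0.053 (interval 0.0089 to 0.098), and at -0.026 with the fit removed. In the cysteine supply list, 3 of 8 genes tested had an interval above 0 and 1 below, with a median of -0.019. Median-of-ratios scaling gave 2 and 2, and removal of the fit gave 2 and 3 with a median of -0.0082. Of its most abundant genes, AHCY was at 0.048 and MAT2A at 0.10.

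In the NADPH supply list, the source of electrons for GSR and TXNRD1, 7 of 14 genes lay above 0 and none below (median 0.058). Median-of-ratios scaling gave 6 and 1. Removal of the fit gave 7 and 0 (median 0.051), and the longest transcripts gave 8 and 1 (median 0.060). TKT was at 0.054 and PGLS at 0.29, and with the fit removed they were at -0.0037 and 0.12. In the thioredoxin, peroxiredoxin and glutaredoxin list, 7 of 21 lay above and 2 below (median 0.069, and 0.026 with the longest transcripts). TXN was at 0.14, SOD1 at 0.13 (0.074 with the longest transcripts), TXNIP at 0.24 and PRDX5 at 0.17 (0.031 with the fit removed). Of the other glutathione-using enzymes, 6 of 12 lay above and 1 below, with a median of 0.067. With the fit removed, 3 lay above and 1 below with a median of -0.028, and with the longest transcripts 3 lay above and 3 below with a median of -0.061. In this list GSTP1 was at 0.091 (-0.042 with the fit removed), ADH5 at 0.14 and GLO1 at -0.13 (-0.025 with the fit removed). In glutathione breakdown and transport, 2 of 10 lay above and 5 below (median -0.017), and with the fit removed none lay above and 2 below (median -0.039). The mitochondrial glutathione carriers SLC25A39 and SLC25A40 stood at 0.15 and -0.22, and at 0.012 and -0.035 with the fit removed. LAP3 was at -0.067, and at -0.043 with the fit removed.

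Around NFE2L2 and KEAP1, the regulators of NRF2 had 4 of 16 genes above 0 and 5 below, with a median of -0.025. Median-of-ratios scaling gave 2 and 6, and removal of the fit gave 3 and 7 with a median of -0.076. With the longest transcripts 3 lay above and 4 below, and over genes with at least 200 counts the median without the fit was 0.0019. SQSTM1, which binds KEAP1, was at 0.30 (0.17 with the fit removed) and GSK3B at -0.28 (-0.16 with the longest transcripts). NFE2L1 was at 0.035 (-0.058 with the fit removed) and RBX1 at -0.010. Of the other NRF2 targets, 9 of 20 lay above and 2 below, with a median of 0.090. After the fit on length and GC content was removed, 7 lay above and 3 below with a median of 0.020, and with the longest transcripts 6 lay above and 5 below. NQO1 had 578 and 640 counts and a log2 fold change of 0.26 (interval 0.10 to 0.43), and FTL, a gene with many processed copies in the genome, was at 0.21 (0.13 with the fit removed). HMOX1, CHAC1 and PTGS2 were listed at 0 in both libraries, as were ESD and PRDX2, which most cells express, so nothing is read from these zeros.

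Beside ACSL4, the lipid substrates and drivers of ferroptosis had 3 of 27 genes above 0 and 11 below, with a median of -0.055. With the fit removed, 5 lay above and 7 below with a median of -0.020, and with the longest transcripts 7 lay above and 6 below with a median of -0.0023. ACSL1 was at -0.26, FAR1 at -0.21, VDAC3 at 0.058, HMGB1, which also has many processed copies, at -0.018 and TFRC, the gene of the antibody's target, at 0.052. Of these, FAR1 went to -0.020, HMGB1 to 0.093 and TFRC to 0.17 with the fit removed. Beside AIFM2, the coenzyme Q and other radical-trapping systems had 8 of 23 above and 6 below, with a median of 0.038. Upper-quartile scaling, with which all genes tested moved in the same direction, gave 9 and 3, removal of the fit 4 and 1, and the longest transcripts 5 and 2 with a median of 0.0033. COQ9 was at 0.17 (0.096 with the fit removed), HPDL at 0.15 (0.040 with the fit removed) and STARD7 at -0.031. HPDL was at 0.0033 with the longest transcripts. Beside the selenoproteins GPX4 and TXNRD1, the selenocysteine insertion genes had 3 of 10 above and 4 below (median -0.0057, 0.0062 with upper-quartile scaling and 0.0032 with the fit removed). SEPHS2 was at 0.18, SEPHS1 at -0.043 and SECISBP2L at -0.26 (-0.16 with the fit removed). The other selenoproteins had 3 of 12 above and 1 below (median 0.054). With the fit removed the median was -0.014, with 3 above and 2 below, and with the longest transcripts it was -0.032. SELENOH was at 0.16, SELENOF at -0.0025 and SELENOI at -0.19, and with the fit removed they were at 0.089, 0.10 and -0.063. These counts and medians describe the lists beside all genes tested and were not tested against them. With a wider interval, the genes above and below 0 were 2 and 1 in cysteine supply, 5 and 0 in NADPH supply, 7 and 1 in the thioredoxin list, 2 and 1 among the other glutathione-using enzymes and 2 and 3 in glutathione breakdown and transport. They were 2 and 4 among the regulators of NRF2, 6 and 1 among its other targets, 2 and 6 in the lipid list, 2 and 2 in the coenzyme Q list, 2 and 2 in selenocysteine insertion and 2 and 1 among the other selenoproteins. Among the list genes whose sign changed under at least 1 form of the fit on length and GC content were SLC3A2, AHCY, TKT, PRDX5, GSTP1, NFE2L1, HMGB1, SEPHS1 and SELENOF.

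**Figure D4:**
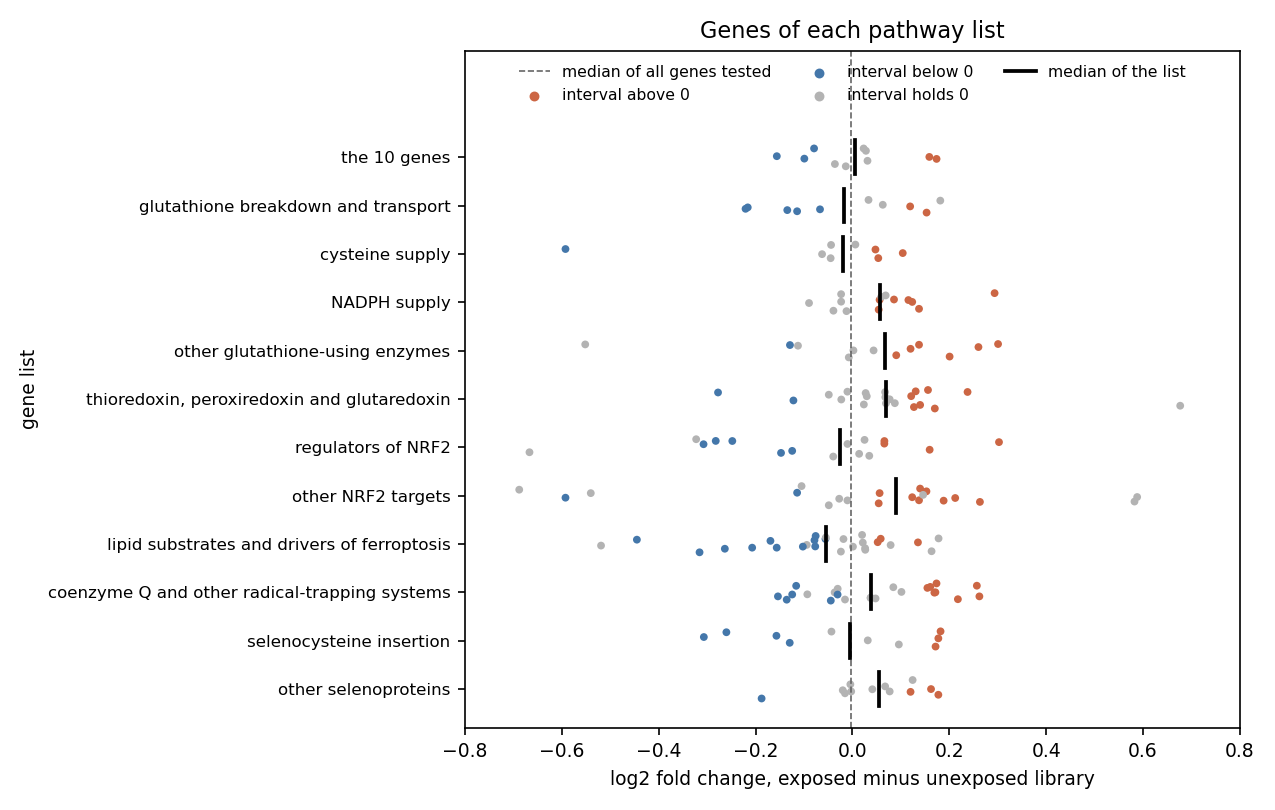
Log2 fold change (exposed minus unexposed library) of every gene tested in the 10 genes and in each of the 11 pathway lists, 1 point per gene, with the median of each list as a black line. Orange points have a counting interval above 0, blue points below 0 and grey points hold 0; the vertical position within a row is random, and no point passes 1 in size.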

How the data were processed

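RNA of 1 unexposed and 1 exposed NK92 library was analysed. Per the labels and the study's methods, the authors trimmed reads with Trimmomatic 0.38, mapped them with HISAT2 2.2.0 to hg38 and counted them with StringTie 2.1.3b, which divides reads of shared exons between genes by an estimate. The deposited counts are whole numbers per gene, unscaled. Where reads were divided by an estimate they are not exact tallies, though the counting intervals treat them as such. The counts were written with commas between digits, which were removed. The FPKM and TPM columns, which the authors rounded to integers before they deposited them, were used as a score. The comparison tool that the authors used, edgeR 3.17, was not used here.

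Scaling followed the trimmed mean of M-values (TMM), leaving out 30% of log ratios and 5% of levels, and CPM values were put on the log2 scale after adding a prior count of 2. The software was Python 3.11.15 (numpy 2.4.6, with pandas 2.3.3 for tables, scipy 1.17.1 for intervals, statsmodels 0.14.6 for the regression and matplotlib 3.10.9 for drawing). No count model was fitted. The steps were tested on simulated counts. Length and GC content came from GENCODE 29, which covers 88.5% of the genes tested, and the regression used genes with at least 200 counts. The table held 0 further columns of per-sample values. The genes and lists were chosen with earlier results of these data known. Genes named are the 10 genes, any list gene past 2-fold, and TFRC, SLC7A11, SLC3A2, HMOX1, NQO1, CHAC1 and PTGS2. In each list the 2 highest by mean TPM and the 2 with the largest change are also named. The change was ranked by the interval bound nearest to 0, among genes with at least 100 counts and an interval off 0. Values of some genes that this rule names are not reported here. The alternatives were other scalings, prior counts, count minimums, thresholds and intervals, the deposited TPM and FPKM with a pseudocount of 1, and removal of the regression on length and GC content.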

Additional observations from a re-analysis of the deposited data

How the results depend on the processing

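No paired analysis was possible because only 1 library was read per condition, and for the same reason none could be left out. None of the 10 genes was past 2-fold under any scaling, prior count, filter or unit tried, nor past 1.5-fold or 1.2-fold. The number with a counting interval above 0 was 2, and 1 with the fit on length and GC content removed and 1 with a wider interval. With the fit on the longest transcripts it was 2, but GSR took the place of GPX4 beside KEAP1. Upper-quartile scaling gave 3. The number below 0 was 3. It was 2 with the fit removed, with a wider interval and with upper-quartile scaling, and 1 with the fit on the longest transcripts, which was chosen after seeing the data. These counts were not made from TPM and FPKM. The median of the 10 genes ranged from -0.050 (TPM) to 0.017 (upper-quartile scaling). Where TPM was 20 or more in both libraries, the median difference of TPM from count fold changes was -0.054. Among the named genes and ratios with a counting interval off 0, the sign turned with the fit removed for GSTP1 (-0.042), SLC3A2 (-0.026), TKT (-0.0037) and the ratio KEAP1 to NFE2L2 (-0.012). With the longest transcripts it turned for GPX4 (-0.047), AHCY (-0.025), GSTP1 (-0.11), PRDX5 (-0.015), SLC3A2 (-0.033), TKT (-0.015) and the ratios GPX4 to ACSL4 (-0.025) and GPX4 to TXNRD1 (-0.0081). With TPM it turned for AHCY (-0.015). The cause was not tested. Further list genes with an interval off 0, not named here, turned as well under either form of the fit. Values with an interval that held 0 changed sign as well, among the 10 genes GCLM (0.091), GSS (-0.035) and GSR (-0.0082) with the fit removed, and GSS (-0.029), GSR (-0.017) and NFE2L2 (-0.041) with TPM. Beside the values with an interval off 0 that turned, 721 values of named genes, lists and ratios stayed within a tolerance whose size is not given here. Of these, 14 changed sign. A further 124 moved beyond the tolerance, 13 of these with a change of sign. Both counts take in the sign changes of GCLM, GSS, GSR and NFE2L2 just given. AIFM2 was the least read of the 10 genes, and its counting interval of -0.12 to 0.089 was the widest, so depth limits its value most.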

Other observations

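GCH1, which makes the precursor of the radical-trapping cofactor tetrahydrobiopterin, gave different values by counts and by TPM. It was chosen after its values were seen. Its counts were 7834 (167 CPM) in the unexposed and 7072 (164 CPM) in the exposed library, a log2 fold change of -0.030 with an interval (-0.077 to 0.016) that holds 0. Its sign changed with length and GC content removed, to 0.015 with either form of the fit. The deposited TPM was 154 and 127. DHODH, which reduces coenzyme Q in mitochondria and was likewise chosen after its values were seen, had 919 counts (19.6 CPM) and 953 counts (22.1 CPM), a log2 fold change of 0.17 (interval 0.037 to 0.30), and 0.13 with length and GC content removed.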
